A study of Rattus norvegicus with 8 samples.

Results

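The regulators of G-protein signalling described here are 10 genes, Rgs2, Rgs4, Rgs5, Rgs7, Rgs8, Rgs10, Rgs12, Rgs14, Rgs16 and Rgs20, taken by symbol from a table of transcript levels in the rat hippocampus. All 10 had a level in the table, in 15 transcripts of 16266, or 10 gene symbols of 13272. The table compares whole hippocampi of 8 rats whose adrenal glands had been removed, 4 infused with vehicle (0.45% saline) and 4 with corticosterone as its 2-hydroxypropyl-β-cyclodextrin complex at 0.75 mg/mL (CORT), the main glucocorticoid of the rat. The infusion lasted 30 min from ZT 2, where zeitgeber time (ZT) counts hours from lights on, and tissue was taken 2 h after its start. By the study's methods, the rats of both groups had drunk a low dose of corticosterone in saline after surgery until shortly before the experiment. The labels give Sprague-Dawley rats aged 3 to 4 months, whereas the study's methods name younger adult male Lister hooded rats, so strain and age cannot be stated firmly. The titles of the vehicle samples call them untreated, although their treatment entry names the saline infusion.

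The authors' deposited table holds 1 level per transcript and group, so every level below is the authors' group value with no spread between rats, and no difference between the groups could be tested. Levels are FPKM, read fragments per unit of transcript length, scaled to the size of the library, and can be compared between genes. Differences are given as log2 of the CORT over the vehicle level, with no pseudocount, and a transcript was counted as different when it passed 1.5-fold in either direction. A lower bar was a log2 difference of 0.32. The read depth behind each level is unknown. The medians over all transcripts were 9.22 FPKM under vehicle and 9.38 FPKM under CORT, and the median log2 difference was 0.02.

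Receptors of the G-protein coupled class act through G proteins, whose alpha subunit is active while it holds GTP. RGS proteins bind the active alpha subunit and speed up GTP hydrolysis, which shortens the signal, and the family members differ in the alpha subunits they prefer and in the domains they carry beside the RGS domain. In hippocampal neurons they act on signals from glutamate, acetylcholine, serotonin, adenosine and GABA receptors, and some members are best known from other cells of the brain, Rgs5 from pericytes of small vessels and Rgs10 from microglia.

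Of the 10 genes, 6 lie on chromosome 13 of the rn6 genome. Rgs8 and Rgs16 are separated there by 38.8 kb and Rgs5 and Rgs4 by 51.8 kb, and no other gene symbol of the table had a transcript within either gap. Because the comparison is one of a steroid whose receptor binds DNA, the 250 bases before the start of 4 of the genes are shown, 5′ to 3′ on the strand of the gene, from the RefSeq promoter windows of the GRCr8 assembly, which give 1 start per gene. Rgs4 and Rgs5 were chosen as neighbours, Rgs2 as the member of similar level next to them in the order below, and Rgs12 as the gene with the largest difference. The windows are chr13:58352667-58352916 on the minus strand for Rgs2, chr13:84475885-84476134 on the minus strand for Rgs4, chr13:84380827-84381076 on the plus strand for Rgs5 and chr14:80034860-80035109 on the minus strand for Rgs12. Capitals mark, on either strand, the GC box GGGCGG, the CCAAT box CCAAT, the TATA box TATAAA and the core TGACG of the cAMP response element.
Rgs2: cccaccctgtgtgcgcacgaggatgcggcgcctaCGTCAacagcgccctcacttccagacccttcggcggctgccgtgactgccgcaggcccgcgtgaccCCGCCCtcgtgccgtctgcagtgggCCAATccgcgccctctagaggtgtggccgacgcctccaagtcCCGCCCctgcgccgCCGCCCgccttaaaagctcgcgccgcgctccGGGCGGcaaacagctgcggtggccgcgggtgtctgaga
Rgs4: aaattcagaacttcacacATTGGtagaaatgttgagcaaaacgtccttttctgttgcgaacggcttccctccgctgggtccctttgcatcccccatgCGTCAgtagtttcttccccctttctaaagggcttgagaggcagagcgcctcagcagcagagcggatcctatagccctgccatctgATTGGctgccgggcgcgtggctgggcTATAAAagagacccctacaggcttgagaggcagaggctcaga
Rgs5: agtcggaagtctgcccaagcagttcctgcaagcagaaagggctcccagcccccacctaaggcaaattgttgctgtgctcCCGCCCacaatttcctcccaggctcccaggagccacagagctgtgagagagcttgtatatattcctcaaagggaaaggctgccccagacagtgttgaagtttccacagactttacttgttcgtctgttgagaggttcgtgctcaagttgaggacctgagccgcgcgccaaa
Rgs12: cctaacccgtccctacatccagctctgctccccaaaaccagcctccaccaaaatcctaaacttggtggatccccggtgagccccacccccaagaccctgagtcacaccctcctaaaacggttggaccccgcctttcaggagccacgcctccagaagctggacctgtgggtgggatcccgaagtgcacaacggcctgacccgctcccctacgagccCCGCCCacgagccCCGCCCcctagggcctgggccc
The window of Rgs2 holds 4 GC boxes, the nearest ending 33 bases before the start, together with a CCAAT box and the core TGACG. That of Rgs4 holds no GC box, but a TATA box from 42 to 37 bases before the start, 2 CCAAT boxes and also the core TGACG. Rgs5 has a single GC box, and Rgs12 has 2, within 35 bases of the start.

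Of the 10 genes, 9 had such a window, and the entry for Rgs20 was missing. The sequence AGAACA, the core hexamer bound by the glucocorticoid receptor, was searched on both strands together with the full palindrome, AGAACA followed after 3 bases by TGTTCT. The hexamer was in none of the 9 Rgs windows, and in 17.5% of all 33469 windows of the same length. It was also in none of the 9 windows found for 10 genes listed as glucocorticoid-responsive, such as Per1 and Sgk1, so its absence from this stretch does not set the Rgs genes apart from those. The full palindrome was in 4 of all 33469 windows and in none of these. The E-box CACGTG, read by the clock transcription factors, was in the window of Rgs7, from 95 to 90 bases before the start, and in 5.59% of all windows. A GC box was in 6 of the 9 Rgs windows and in 5 of the 9 windows of the glucocorticoid-responsive genes, against 30.5% of all windows. For the CCAAT box these were 4, 5 and 34.0%, for the core TGACG 2, 3 and 18.2%, and for the TATA box 1, 2 and 12.9%. The windows with the most CG pairs were those of Rgs7, with 35, Rgs2, with 33, and Rgs10, with 26, against a median of 5 over all windows, while Rgs8 had 5 and Rgs5 had 7. A match or its absence describes these letters and says nothing of binding.

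With the transcripts of a gene summed, the levels of the 10 genes spanned 17.3-fold under vehicle and 16.1-fold under CORT. Rgs10 was highest, at 117 FPKM under vehicle and 110.3 FPKM under CORT, above 93.7% of all gene symbols. Rgs14 followed at 59.3 and 65.6 FPKM. The next 4 genes were close together under vehicle, Rgs4 at 36.1 FPKM, Rgs7 at 35.0 FPKM, Rgs5 at 34.1 FPKM and Rgs2 at 33.8 FPKM, so that each was within 1.03-fold of its neighbour. With CORT, Rgs4 (40.4 FPKM), Rgs7 (39.7 FPKM) and Rgs2 (38.3 FPKM) stayed within 1.04-fold of each neighbour, and Rgs5, at 31.2 FPKM, came after them. Below these were Rgs8 at 21.1 and 22.1 FPKM, Rgs12 at 15.5 and 18.6 FPKM, Rgs20 at 11.0 and 10.3 FPKM and Rgs16 at 6.76 and 6.86 FPKM under vehicle and CORT. Rgs5 and Rgs2 were the single pair whose order differed between the groups, and without a spread between rats the order among these 4 genes is not resolved.

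**Figure D1:**
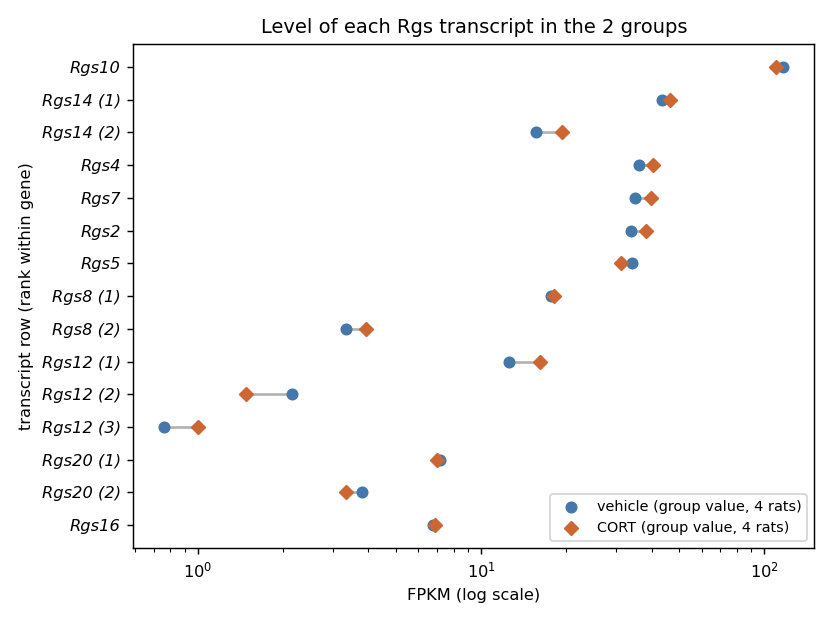
FPKM on a log axis for each of the 15 transcripts, with a circle for the vehicle group and a diamond for the CORT group, each the authors' single value for 4 rats; numbers in brackets rank the transcripts of a gene by level. The 2 values of a transcript lie close together beside the distance between transcripts, from the third Rgs12 transcript below 1 FPKM to Rgs10 at 110.3 FPKM or more.

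The 10 genes summed to 369 FPKM under vehicle and 383 FPKM under CORT, 3.81% more, while the FPKM of all transcripts summed to 6.44% more under CORT. None of the 15 transcripts differed by 1.5-fold, where 9.12% of all transcripts did, 4.21% higher and 4.91% lower under CORT. The count was also 0 of 15 at 2-fold, where 3.95% of all transcripts passed, 1.92% higher and 2.03% lower, 0 of 14 among transcripts with a mean of at least 1 FPKM, where 6.98% passed 1.5-fold, 0 of 9 among those with at least 10 FPKM, where 2.47% did, and 0 of the 10 genes when transcripts were summed, where 5.52% of symbols did. At the lower bar, 3 of the 15 differed, which is 20.0% against 20.3% of all transcripts, and all 3 were transcripts of Rgs12. The shares at the lower bar were 17.7% of transcripts with a mean of at least 1 FPKM, where 2 of 14 Rgs transcripts passed, and 14.5% of summed symbols. Among transcripts with a mean of at least 10 FPKM, 6.92% passed the lower bar, and 1 of the 9 Rgs transcripts at that level did. CORT was above vehicle in 10 of the 15 Rgs transcripts and in 55.0% of all transcripts. The median log2 difference of the Rgs transcripts was 0.08, beside 0.02 for all transcripts.

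**Figure D2:**
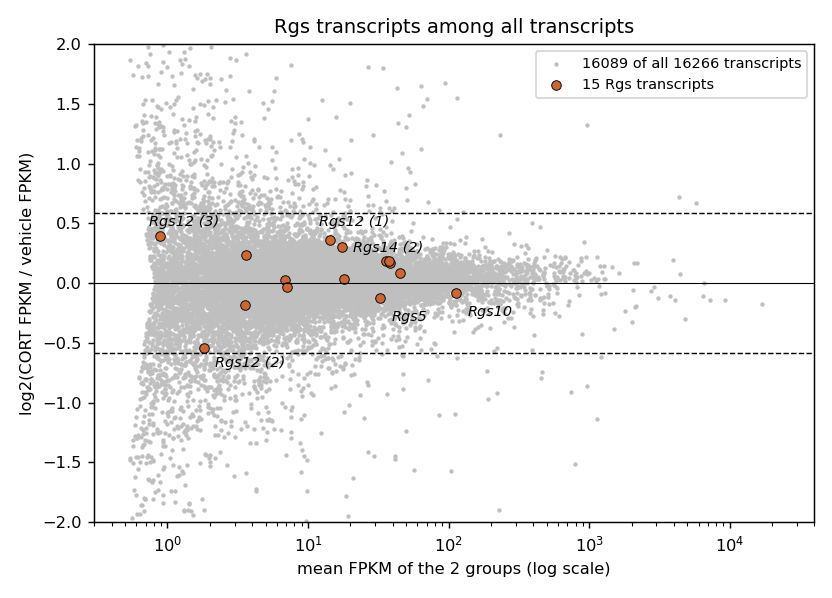
Log2 of CORT over vehicle FPKM against mean FPKM on a log axis, with the 15 Rgs transcripts as filled circles over 16089 of all 16266 transcripts as grey dots; the other 177 lie outside the axes. Dashed lines mark 1.5-fold, and every Rgs transcript lies between them.

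The R4 subfamily holds small proteins with little beside the RGS domain, here Rgs2, Rgs4, Rgs5, Rgs8 and Rgs16. Its levels summed to 132 FPKM under vehicle and 139 FPKM under CORT. Rgs2, on chromosome 13 of rn6 between 60846307 and 60849094, prefers Gq and is known as a gene induced by neuronal activity. It was at 33.8 FPKM under vehicle and 38.3 FPKM under CORT, 13.4% higher, a log2 difference of 0.18. Over all transcripts of any level, 37.2% differed by more in either direction. This share and the like shares below include low transcripts, which differed more widely. The lower bar was passed by 20.3% of all transcripts and by 6.92% of those with a mean of at least 10 FPKM. For comparison, immediate early genes such as Fos, which mark recent neuronal activity, had a median log2 difference of 0.77 over 11 transcripts, 7 of them past 1.5-fold higher and none past 1.5-fold lower. A mean below 1 FPKM was found for 3 of the 11, among them Egr2 and Fosb, which were past 1.5-fold. The 7 also included both transcripts of Arc. Fos itself was at 2.87 FPKM under vehicle and 5.38 FPKM under CORT. The difference of Rgs2 was smaller in size than that of all 11 of these transcripts, of which 10 were higher under CORT and 1 lower.

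Rgs4, which lies between 88054816 and 88061108 and limits Gi and Gq signals in neurons of the forebrain, was at 36.1 FPKM under vehicle and 40.4 FPKM under CORT (log2 difference 0.16). Rgs5, its neighbour between 87966757 and 88003035, was at 34.1 FPKM under vehicle and 31.2 FPKM under CORT, a difference of -8.28% (log2 difference -0.12). Rgs4 and Rgs5 therefore lay on opposite sides of 0, and the ratio of Rgs4 to Rgs5 was 1.06 under vehicle and 1.29 under CORT. With respect to size, 41.0% of all transcripts differed by more than Rgs4 and 51.1% by more than Rgs5.

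Rgs8, between 71086744 and 71141075, is a neuronal member that acts on Gi and Go, and the table lists 2 of its transcripts. The higher one, ENSRNOT00000083366.1, was at 17.7 FPKM under vehicle and 18.1 FPKM under CORT, and the lower one, ENSRNOT00000003239.6, at 3.35 and 3.93 FPKM. Both were slightly higher under CORT, by log2 differences of 0.03 and 0.23. Rgs16, the nearest member to Rgs8, between 71179909 and 71185216, was at 6.76 FPKM under vehicle and 6.86 FPKM under CORT, 1.53% higher. This was the smallest difference of the 15 transcripts, and 90.4% of all transcripts differed by more.

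The R7 subfamily is represented by Rgs7, between 93095199 and 93307199 on chromosome 13. Its protein is stable only in a complex with the G-protein beta subunit Gnb5, and Rgs7bp and the orphan receptor Gpr158 bring that complex to the membrane. Rgs7 was at 35.0 FPKM under vehicle and 39.7 FPKM under CORT, 13.3% higher (log2 difference 0.18). Gnb5 was at 45.5 and 51.1 FPKM (0.17), Gpr158 at 14.2 and 16.0 FPKM (0.17), and Rgs7bp at 28.5 and 34.9 FPKM (0.29). Rgs7 and these 3 partners were each somewhat higher under CORT, as were 55.0% of all transcripts, and none passed the lower bar. Whether they differ together was not tested. The partners Rgs9bp and Gpr179, known from the retina, had no transcript in the table.

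The R12 subfamily joins Rgs10, a protein of little more than the RGS domain, with the large scaffold proteins Rgs12 and Rgs14, which also bind Ras family proteins and inactive Gi. Its levels summed to 192 FPKM under vehicle and 195 FPKM under CORT, more than the 5 R4 genes together. Rgs10, on chromosome 1 between 199782077 and 199823386, was at 117 FPKM under vehicle and 110.3 FPKM under CORT (log2 difference -0.08). In FPKM this was the largest difference among the 15 transcripts, at -6.54 FPKM, although 65.1% of all transcripts differed by more on the log2 scale.

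Rgs14, on chromosome 17 between 9777841 and 9792007, is enriched in CA2 pyramidal neurons, where it restrains long-term potentiation. Its higher transcript, ENSRNOT00000021596.2, was at 43.7 FPKM under vehicle and 46.3 FPKM under CORT, a log2 difference of 0.08. The lower transcript, ENSRNOT00000090536.1, was at 15.7 and 19.3 FPKM, a log2 difference of 0.30. The share of the lower transcript in the summed level of the gene was 26.4% under vehicle and 29.5% under CORT, so the proportions were little altered.

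Rgs12, on chromosome 14 between 80975321 and 81053906, had the widest log2 differences of the 10 genes. Its main transcript, ENSRNOT00000081570.1, was at 12.6 FPKM under vehicle and 16.1 FPKM under CORT, 28.4% higher (log2 difference 0.36). Of all transcripts, 17.5% differed by more. Among transcripts with a mean of at least 10 FPKM, as this one has, 6.92% passed the lower bar. The second, ENSRNOT00000045068.3, was at 2.16 and 1.49 FPKM, a difference of -31.2% (log2 difference -0.54), just inside the 1.5-fold bar. The third, ENSRNOT00000040215.5, was at 0.762 and 0.999 FPKM (log2 difference 0.39). The main transcript made up 81.2% of the summed level under vehicle and 86.7% under CORT, while the share of the second was 13.9% under vehicle and 7.97% under CORT. The main transcript was thus 5.83 times the second under vehicle and 10.9 times under CORT. The 2 lower transcripts rest on few FPKM, and with a pseudocount of 1 FPKM their log2 differences were -0.35 and 0.18. Transcripts of 1 locus share reads, and the authors' software divided these between them by estimate, so a level for a minor transcript is less certain than the sum, which was 15.5 FPKM under vehicle and 18.6 FPKM under CORT (log2 difference 0.27). Transcripts on both sides of 0 were common in the table, at 54.8% of the 2383 symbols with more than 1 transcript, and Rgs12 was the only such case among the 4 of the 10 genes with more than 1. Transcripts past the lower bar in both directions, as in Rgs12, were found for 7.85% of these symbols.

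Rgs20, of the RZ subfamily, which acts on Gz and Gi, lies on chromosome 5 between 14415605 and 14494756. Its higher transcript, ENSRNOT00000010682.5, was at 7.18 FPKM under vehicle and 7.004 FPKM under CORT, and the lower one, ENSRNOT00000089273.1, at 3.79 and 3.33 FPKM. Both were slightly lower under CORT, by log2 differences of -0.04 and -0.19, and the higher transcript held 65.4% of the summed level under vehicle and 67.8% under CORT.

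**Figure D3:**
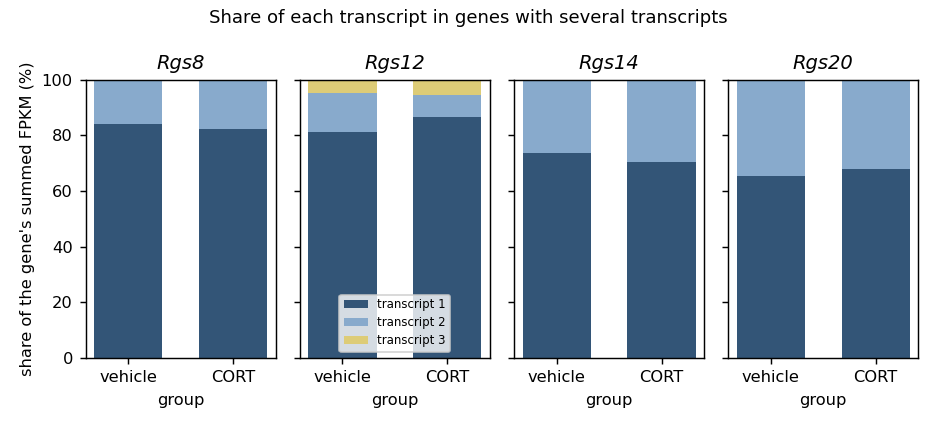
Share of each transcript in the summed FPKM of Rgs8, Rgs12, Rgs14 and Rgs20, in percent, as stacked bars for the vehicle and the CORT group (1 group value each). The share of the second Rgs12 transcript is 13.9% under vehicle and 7.97% under CORT, and the shares of the other genes differ less.

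Genes listed as glucocorticoid-responsive differed more between the groups. Of 12 transcripts of 10 such genes, 11 were past 1.5-fold higher under CORT, and their median log2 difference was 0.91; some of these genes were named by the study partly from these samples, so the list is no independent evidence. Sgk1, a kinase induced by glucocorticoids, went from 28.5 FPKM under vehicle to 70.4 FPKM under CORT in its main transcript. The largest positive log2 difference among the 15 transcripts of the 10 Rgs genes, 0.39, was below the median of the 12. The smallest among the 11 was the 0.60 of Klf9, a transcription factor named after its value was seen. Those 11 were picked by the 1.5-fold bar, which no Rgs transcript passed, so they lie above the Rgs transcripts by selection. The remaining transcript of the 12, the lower one of Sgk1, had a log2 difference of 0.04, below the 0.39.

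The rest of the G-protein pathway was described by lists of genes. Of 11 other RGS genes, 8 had a transcript, and of their 11 transcripts 1 was past 1.5-fold higher and none lower, with a median log2 difference of 0.06. That was the lower transcript of Rgs6, at 0.687 FPKM under vehicle and 1.21 FPKM under CORT, named after its value was seen; the higher Rgs6 transcript was at 6.52 and 6.29 FPKM. The largest positive log2 difference among those at 1 FPKM or more was that of an Rgs17 transcript, from 2.36 to 3.53 FPKM, and the largest negative that of Rgs22, from 2.65 to 2.35 FPKM. The alpha subunits on which RGS proteins act had a median log2 difference of 0.07 over 16 transcripts, with none past 1.5-fold higher and 2 past 1.5-fold lower. These 2 were Gnat2, the alpha subunit of cone photoreceptors, at 3.00 FPKM under vehicle and 0.307 FPKM under CORT, and Gna15, known from blood cells, at 1.96 and 1.13 FPKM; Gna15 was named after its value was seen. Other alpha subunits differed by less than the lower bar, in both directions. Gnao1, at 117 and 131 FPKM, Gnaq, at 39.0 and 44.8 FPKM, and Gnai1, at 58.6 and 65.0 FPKM, were higher under CORT. Gnai2, at 160 and 149 FPKM, and Gnai3, at 22.4 and 20.8 FPKM, were lower. These genes were also named after their values were seen.

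The beta and gamma subunits had a median log2 difference of -0.09 over 18 transcripts, 5 of them past 1.5-fold lower and none higher. The lowest was Gngt1, a gamma subunit of rod photoreceptors, at 3.45 FPKM under vehicle and 0.158 FPKM under CORT, and the other 4 were Gngt2, Gnb3 and both transcripts of Gng8, named after their values were seen. The largest positive log2 difference, 0.21, was that of Gng4. Of 9 transcripts of receptor kinases and beta-arrestins, which silence the receptor rather than the G protein, 1 was past 1.5-fold higher. It was a minor transcript of the kinase gene Adrbk2, at 1.47 FPKM under vehicle and 2.25 FPKM under CORT. The main Adrbk2 transcript was at 7.26 FPKM under vehicle and 8.19 FPKM under CORT (log2 difference 0.17). Of 20 transcripts of effectors, namely phospholipases C beta, adenylyl cyclases and inwardly rectifying potassium channels, 1 was past 1.5-fold lower, a minor transcript of Adcy6, at 2.19 and 0.590 FPKM. The receptors upstream had medians above that of all transcripts. For Gi/o-coupled receptors it was 0.20 over 35 transcripts of 23 genes, several of them transcripts of Gabbr1. Of the 35, 31 were higher under CORT, 3 past 1.5-fold higher and 1 past 1.5-fold lower. Among those past 1.5-fold, only that of Chrm4 had a mean of at least 1 FPKM. At the lower bar, 11 of the 35 were higher and 2 lower, compared with 9.54% and 10.8% of all transcripts. Chrm4, the M4 muscarinic receptor, had the largest positive difference at 1 FPKM or more, from 8.81 to 13.9 FPKM. For Gq-coupled receptors the median was 0.15 over 14 transcripts, with 1 past 1.5-fold higher, Htr2a, from 1.69 to 2.67 FPKM, and none past 1.5-fold lower.

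**Figure D4:**
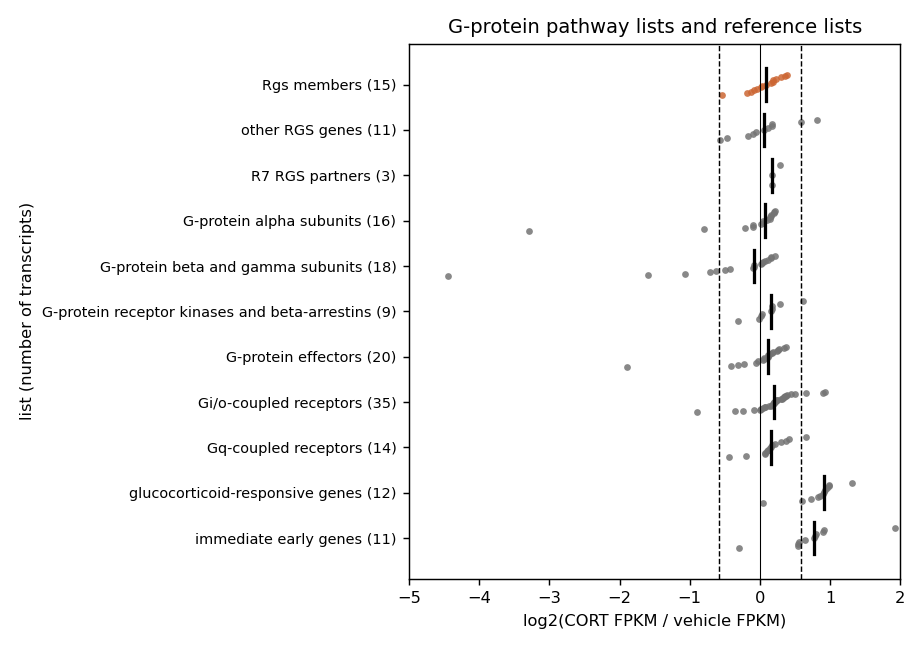
Log2 of CORT over vehicle FPKM for each transcript of the Rgs genes, of the other G-protein pathway lists and of the glucocorticoid-responsive and immediate early genes; dots are transcripts, thick bars medians and dashed lines 1.5-fold. The median of the Rgs genes is 0.08, against 0.91 for the glucocorticoid-responsive and 0.77 for the immediate early genes.

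In whole tissue, fewer cells of a type and less RNA per cell cannot be told apart, and 3 members are known from particular cells. Of 9 markers of hippocampal excitatory neurons, 8 had a transcript, with a median log2 difference of 0.06. They summed to 1749 FPKM under vehicle and 1873 FPKM under CORT. Most of this was Slc17a7, at 736 and 794 FPKM, and Camk2a, at 593 and 667 FPKM. For Rgs10, 13 of 14 microglial markers had a transcript, 14 of their 15 transcripts were lower under CORT, and the markers summed to 425 FPKM under vehicle and 354 FPKM under CORT (median log2 difference -0.25). Rgs10 was lower by less, at -0.08. All microglial marker transcripts had a mean of at least 1 FPKM, from Gpr34, 13.9 to 8.62 FPKM, the lowest on the log2 scale, to Tmem119, 5.72 to 11.2 FPKM, the one exception in direction. For Rgs5, 13 of 14 markers of pericytes and other mural cells had a transcript, 12 of the 15 transcripts were lower under CORT, and the median log2 difference was -0.40. These markers summed to 193 FPKM under vehicle and 87.1 FPKM under CORT, a gap that was mostly Tagln, a smooth muscle gene at 105 and 22.5 FPKM in its main transcript. The minor Tagln transcript went the other way, from 0.104 to 1.72 FPKM. Cspg4 (log2 difference 0.21) and a Pdgfrb transcript (0.12) were also higher under CORT. Rgs5, at -0.12, was again lower by less than the median of its markers. The part of either cell type in the values of Rgs5 and Rgs10 was not tested. For Rgs14, 6 of 7 CA2 markers had a transcript, 2 higher under CORT, 1 of them past 1.5-fold, and 4 lower. Their median log2 difference was -0.09. They summed to 519 FPKM under vehicle and 492 FPKM under CORT, mostly from Pcp4 at 387 and 352 FPKM. Both Rgs14 transcripts were higher under CORT.

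Markers of tissue next to the hippocampus also differed between the groups. Thalamic and habenular neuron markers had a median log2 difference of -0.96 over 10 transcripts, 8 past 1.5-fold lower and 1 past 1.5-fold higher, and summed to 67.3 FPKM under vehicle and 40.9 FPKM under CORT. Chrna3, a nicotinic receptor subunit of the habenula, was lowest, at 3.40 and 0.557 FPKM. Meningeal fibroblast markers had a median of -0.85 over 8 transcripts, 4 past 1.5-fold lower and none higher, and endothelial markers one of -0.44 over 9, 2 past 1.5-fold lower and none higher. Choroid plexus markers, at a median of -0.02 over 10 transcripts, and striatal markers, at -0.04 over 11, were near 0, with sums of 6783 and 6769 FPKM for the choroid plexus and 118 and 116 FPKM for the striatum. What part such tissue has in the Rgs values was not tested.

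**Figure D5:**
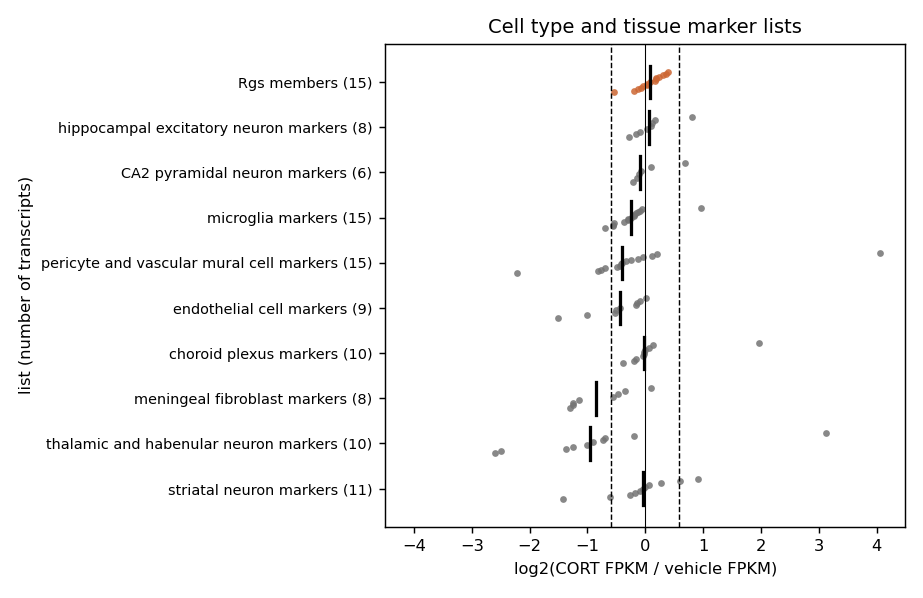
Log2 of CORT over vehicle FPKM for each transcript of the Rgs genes and of marker lists of cell types and neighbouring tissues; dots are transcripts, thick bars medians and dashed lines 1.5-fold. The medians of the microglial (-0.25), mural (-0.40), meningeal (-0.85) and thalamic or habenular (-0.96) lists lie below 0, and the Rgs genes lie around 0.08.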

How the data were processed

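RNAseq libraries were made by the authors from whole hippocampi with a stranded total RNA kit. Per the labels, the processing tools were CASAVA 1.8.2, TopHat2 2.0.10 and Cuffdiff 2.2.0, with the rn6 genome. The authors' deposited table gives 1 FPKM value per transcript for each group of 4 rats, normalized geometrically between libraries, after correction for reads that map to several places, sequence bias and effective length, and with a minimum alignment count. Its status was OK for all 16266 transcripts, and none was at 0 in either group. Its further columns hold the authors' own log2 fold change, test statistic, p-value, q-value and significance call, and none of these was used.

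The planned comparison had no test, because no value per rat was given. The log2 difference was computed from the 2 group values, with no pseudocount and no filter, and read against the share of all transcripts past 1.5-fold, or a log2 difference of 0.32 as a lower bar. The fold calls were checked for their arithmetic alone, and their error rate is not known. All transcripts of the Rgs genes are named; from each other list, those with the largest rise and fall at a mean of 1 FPKM or more, and the R7 partners, could be named, and other names were added after their values were seen. The members and lists were chosen with earlier results of these data known. Promoter letters were read from RefSeq windows of GRCr8, with 250 bases before each start. Python 3.11.15, numpy 2.4.6, pandas 2.3.3 and matplotlib 3.10.9 were used. The depth of each library is unknown, and the error of an FPKM level cannot be stated. Replicates are separate rats by their titles.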

Additional observations from a re-analysis of the deposited data

How the results depend on the processing

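The number of Rgs transcripts past 1.5-fold was 0 with a 2-fold bar, with pseudocounts of 1 and 0.1 FPKM, with a mean of at least 1 or 10 FPKM, when centred on the median, and with the FPKM of a symbol summed, and it was 3 with a bar of 0.32 on the log2 scale. Over all transcripts, 1483 passed 1.5-fold, 685 higher and 798 lower. That number was 3308 with a bar of 0.32 on the log2 scale, 643 with a bar of 2-fold, 749 with a pseudocount of 1 FPKM and 733 when summed by symbol, where 235 were higher and 498 lower, 193 with a mean of at least 10 FPKM, a filter chosen after seeing the data, and between 1078 and 1493 with a pseudocount of 0.1 FPKM, with a mean of at least 1 FPKM and when centred on the median. The median log2 difference of the Rgs transcripts lay between 0.06 and 0.11 under all alternatives run. With a pseudocount of 1 FPKM, 2 of the 15 transcripts, both of Rgs12, moved by over 0.1 on the log2 scale. Centring on the median of 0.02 turned 1, that of Rgs16, from 0.02 to -0.00052, and no Rgs transcript crossed 1.5-fold. The order of the 10 genes was the same with the highest transcript in place of the sum.

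Leaving out single rats was not possible, because only group values were used. No paired analysis was possible because each group has a single level per transcript. The depth is unknown, and no limit of detection is given.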
